A study of Mus musculus with 18 samples.

Results

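Genes of cholesterol and fatty acid synthesis were followed as 1 set in activated mouse CD4 T cells. The 36 members were chosen by symbol: genes of the mevalonate and sterol pathway, of fatty acid synthesis and desaturation, of the SREBP transcription factors that control both, and of the sterol sensor LXR. All 36 were found among the 27179 genes listed, and all 36 passed the filter on low counts that kept 11738 genes. The mice carried floxed Maf alleles (Maf fl/fl) in all groups and, in part of them, CD4Cre, a transgene in which Cd4 control elements drive Cre recombinase. Their naive CD4 T cells were activated on plates coated with antibodies to CD3 and CD28, grown for 3.5 days under treatments named Tfh5, Tfh1 and TfhA, and sorted. The sources used here state neither what those treatments contain nor which part of Maf is floxed. The 18 libraries form 6 groups of 3: Tfh5, Tfh1 and TfhA, each with libraries labelled CD4Cre+ Maf fl/fl (replicates 1, 3 and 6) and libraries labelled CD4Cre- Maf fl/fl (replicates 2, 4 and 5). Nothing says that the replicates came from separate animals, so p-values measure only how these samples spread, and that spread may be technical.

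Cholesterol is built from acetyl-CoA through mevalonate, the prenyl diphosphates, squalene and lanosterol. When sterols in the endoplasmic reticulum are low, Scap carries the SREBP proteins to the Golgi, where they are cleaved, and the freed part then turns on most genes of the pathway; Insig1 holds Scap back when sterols are high. LXR works in the opposite sense, since oxysterols and sterol intermediates activate it to drive cholesterol export. Activated T cells use the pathway to build membrane as they divide.

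Maf RNA went against the labels. In Tfh5 the libraries labelled Cre-positive had 397, 331 and 319 CPM of Maf (CPM is the count scaled to a common library size), against 0, 0 and 0 CPM in those labelled Cre-negative (edgeR's quasi-likelihood test, adjusted p = 0.000164). In Tfh1 the libraries labelled Cre-positive averaged 221 ± 34.1 CPM, against 0.675 ± 1.17 CPM in those labelled Cre-negative (SD, n = 3 each, adjusted p = 0.00109). In TfhA the means were 11.98 ± 9.54 CPM under the Cre-positive label and 0.0898 ± 0.156 CPM under the Cre-negative label (SD, n = 3 each, adjusted p = 0.1). Maf RNA was therefore higher where the label names the deleter, and every direction below refers to the labels as they stand, not to a known Maf genotype. The 3′ reads check the label only if they lie in the deleted part or if its loss lowers the RNA.

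The libraries held 6424874 to 9236153 counts, of which 7890 to 20707 fell on the members. 2 identifiers with no name in the annotation took 19.7% to 46.2% of the counts, on average 25.1% in TfhA under the Cre-negative label and 36.6% to 40.5% in the other groups. All 8 CD4 T cell markers passed the filter, with a summed level of 1774 to 3759 CPM. Summed markers of B cells reached at most 4.67 CPM (Pax5 at 0 in all 18 libraries), of CD8 T cells 7.84, of myeloid and dendritic cells 10.4 (Lyz2 and Flt3 at 0), of erythroid cells 0.151 (Hbb-bs at 0) and of adipocytes and stroma 3.95 (Fabp4 at 0). NK markers summed to 7.97 to 52.9 CPM, nearly all from Klrd1 (3258 counts over the 18 libraries). Klrb1c had 12 counts, and Ncr1 was at 0 in all 18 libraries. The NK sum averaged 15.07 and 13.98 CPM in TfhA under the Cre-positive and Cre-negative labels, and 21.01 to 39.96 CPM in the Tfh5 and Tfh1 groups. In bulk libraries, fewer cells of a type and less RNA per cell cannot be told apart. Reads come from transcript ends, so CPM levels are compared between libraries and not between genes.

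3 promoters are printed because they belong to sterol genes that passed the threshold in several comparisons and differ in the motifs they hold. Hmgcs1 makes HMG-CoA, Msmo1 is the sterol C4-methyl oxidase, and Sc5d is the sterol C5-desaturase near the end of the pathway. Each window runs from 250 bases before to 50 bases after the transcription start and comes from RefSeq (GRCm38.p6, the full form of mm10), written 5′ to 3′ on the gene's strand. Hmgcs1 lies at chr13:119690101-119690400 on the plus strand, Msmo1 at chr8:64733529-64733828 on the minus strand and Sc5d at chr9:42264251-42264550 on the minus strand. Capitals mark the sterol response element TCACNCCAC and the CCAAT box, each searched on both strands, so that a CCAAT box of the opposite strand reads ATTGG. Hmgcs1 was taken by a rule on calls and motif. Msmo1 and Sc5d were added after their values were seen.
Hmgcs1: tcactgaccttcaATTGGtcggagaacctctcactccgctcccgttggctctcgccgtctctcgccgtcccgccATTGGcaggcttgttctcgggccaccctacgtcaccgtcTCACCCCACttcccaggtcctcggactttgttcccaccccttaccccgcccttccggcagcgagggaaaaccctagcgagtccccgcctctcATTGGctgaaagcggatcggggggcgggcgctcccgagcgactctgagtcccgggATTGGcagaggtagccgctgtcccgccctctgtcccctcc
Msmo1: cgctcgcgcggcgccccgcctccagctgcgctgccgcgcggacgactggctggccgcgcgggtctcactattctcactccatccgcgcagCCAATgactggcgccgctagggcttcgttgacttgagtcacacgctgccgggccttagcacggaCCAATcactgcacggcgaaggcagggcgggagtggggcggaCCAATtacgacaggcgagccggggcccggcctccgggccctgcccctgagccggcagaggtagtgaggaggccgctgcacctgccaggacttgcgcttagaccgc
Sc5d: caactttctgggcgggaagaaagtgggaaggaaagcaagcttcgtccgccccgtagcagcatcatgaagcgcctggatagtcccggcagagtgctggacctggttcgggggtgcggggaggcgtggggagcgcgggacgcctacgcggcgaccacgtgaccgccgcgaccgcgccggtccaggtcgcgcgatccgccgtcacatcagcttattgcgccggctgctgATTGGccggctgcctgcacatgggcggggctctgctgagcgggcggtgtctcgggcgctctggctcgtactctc

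Hmgcs1 held 1 sterol response element, which starts 137 bases before the transcription start, and 4 CCAAT boxes. Msmo1 held 3 CCAAT boxes, 160, 96 and 55 bases before the start, and Sc5d held 1, 24 bases before it; neither held the sterol response element in this form. Promoter windows were found for 28 of the 36 members. The CCAAT box, the site of the factor NF-Y that works beside SREBP on many promoters, was present in 21 of these 28 genes (75%), against 41.058% of the 27025 genes in the table. All 9 genes of the squalene to sterol arm with a window held it, as did 5 of 6 in the mevalonate arm and 3 of 6 in the fatty acid arm. The sterol response element as spelled here was present in 1 of 28 member genes, against 1.436% of all genes in the table. These matches are descriptions of the windows and say nothing of binding in these cells.

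In Tfh5, 6 lipid synthesis genes, 5 of them of cholesterol synthesis, were lower under the Cre-positive label. Of the 36 members, 6 were lower and 0 higher at an adjusted p under 0.05, 16.7% of the set, against 3.2% of all genes tested in either direction and 2.01% lower. The 6 were Acat2, Mvd and Fdps of the mevalonate arm, Cyp51 and Msmo1 of the sterol arm, and Scd1 of the fatty acid arm. DESeq2 called 8 and limma-voom 7, all lower and including these 6, while the shares of all genes given here are edgeR's. The median log2 fold change of the 36 members was -0.50, against 0.00 for all genes tested, and 16 of the 18 mevalonate and sterol genes had a negative sign. The 3 libraries of each label did not overlap for 12 members, all lower under the Cre-positive label, whereas 8.71% of all genes tested were lower without overlap.

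Acat2, the cytosolic thiolase that joins acetyl-CoA units (chr17:12943042-12960725), had 101, 138 and 95.8 CPM in Tfh5 libraries labelled Cre-positive, against 349, 189.7 and 191 CPM in those labelled Cre-negative. Every Cre-positive library was below every Cre-negative one, and 1 Cre-negative library stood well above the other two; the log2 fold change (± its standard error, here and below) was -1.12 ± 0.23, adjusted p = 0.00208. Mvd, the decarboxylase that yields isopentenyl diphosphate (chr8:122433596-122443422), had 54.4, 64.6 and 45.3 CPM under the Cre-positive label and 112, 164 and 79.99 CPM under the Cre-negative label in Tfh5. The labels did not overlap for Mvd either, although the Cre-negative libraries spread widely (log2 fold change -1.11 ± 0.28, adjusted p = 0.0202). In Tfh1 Mvd had 51.9, 107 and 81.3 CPM under the Cre-positive label and 94.5, 79.5 and 109.6 CPM under the Cre-negative label, which overlapped. In TfhA it had 77.5, 68.4 and 63.4 CPM under the Cre-positive label and 102, 87.3 and 84.2 CPM under the Cre-negative label, which did not. Hmgcs1, described with its promoter above (chr13:119690351-119708260), had 58.9, 70.9 and 106 CPM under the Cre-positive label and 137, 93.2 and 134 CPM under the Cre-negative label in Tfh5, and these ranges overlapped (log2 fold change -0.63 ± 0.25, adjusted p = 0.202).

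The last gene of the mevalonate arm, Fdps, encodes farnesyl diphosphate synthase, which supplies both sterols and protein prenylation (chr3:89093588-89101967). Its levels were 122, 108 and 121 CPM in Tfh5 libraries labelled Cre-positive, against 275, 250.3 and 214 CPM in those labelled Cre-negative (log2 fold change -1.07 ± 0.22, adjusted p = 0.00256). The highest Cre-positive library was far below the lowest Cre-negative one. Fdps had fractional counts in 17 of 18 libraries, so some of its reads may be shared with other genes, and this was not tested.

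In the sterol arm, Cyp51, the lanosterol demethylase (chr5:4080674-4104697), had 111, 164 and 156 CPM under the Cre-positive label and 255, 276 and 289 CPM under the Cre-negative label in Tfh5. Its groups were wide apart (log2 fold change -0.93 ± 0.20, adjusted p = 0.00477). Msmo1 (chr8:64718123-64733578) had 75.2, 91.2 and 56.1 CPM under the Cre-positive label and 119, 157 and 164 CPM under the Cre-negative label in Tfh5, again without overlap (log2 fold change -0.98 ± 0.24, adjusted p = 0.0148). Neither Lss, the lanosterol synthase, nor Hsd17b7, a sterol 3-keto reductase, passed the threshold by edgeR, with log2 fold changes of -2.13 ± 0.73, adjusted p = 0.123 and -1.63 ± 0.50, adjusted p = 0.0643. DESeq2 called both lower (adjusted p = 0.0496 for Lss and 0.0283 for Hsd17b7), and limma-voom called Hsd17b7 lower (adjusted p = 0.0407). Hsd17b7 had 13.3, 13.8 and 25.3 CPM under the Cre-positive label, against 44.5, 48.4 and 69.6 CPM under the Cre-negative label in Tfh5, and its groups did not overlap.

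Scd1 had the largest change among the 6. This stearoyl-CoA desaturase makes monounsaturated fatty acids (chr19:44394450-44407709). It had 10.3, 5.97 and 16.02 CPM in Tfh5 libraries labelled Cre-positive, against 53.6, 42.2 and 27.2 CPM in those labelled Cre-negative (log2 fold change -1.93 ± 0.41, adjusted p = 0.00423). The groups did not overlap. Its paralog Scd2 had 2.27, 4.41 and 8.27 CPM under the Cre-positive label and 8.54, 4.56 and 0 CPM under the Cre-negative label in Tfh5. In Tfh1 Scd2 had 4.24, 0 and 0 CPM under the Cre-positive label and 0.496, 17.7 and 4.59 CPM under the Cre-negative label. In TfhA it had 0, 2.21 and 5.503 CPM under the Cre-positive label and 10.1, 3.78 and 8.88 CPM under the Cre-negative label. These levels were low, and the labels overlapped in all 3 treatments. The other 7 genes of the fatty acid arm did not pass: Elovl6, the elongase of palmitate, had a log2 fold change of -1.19 ± 0.51, adjusted p = 0.255, and Acly, which makes cytosolic acetyl-CoA from citrate, one of -0.34 ± 0.28, adjusted p = 0.666. Fasn, the fatty acid synthase, was at or under 2.11 CPM in every library of all 6 groups, so a difference was not detectable at this depth.

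**Figure D1:**
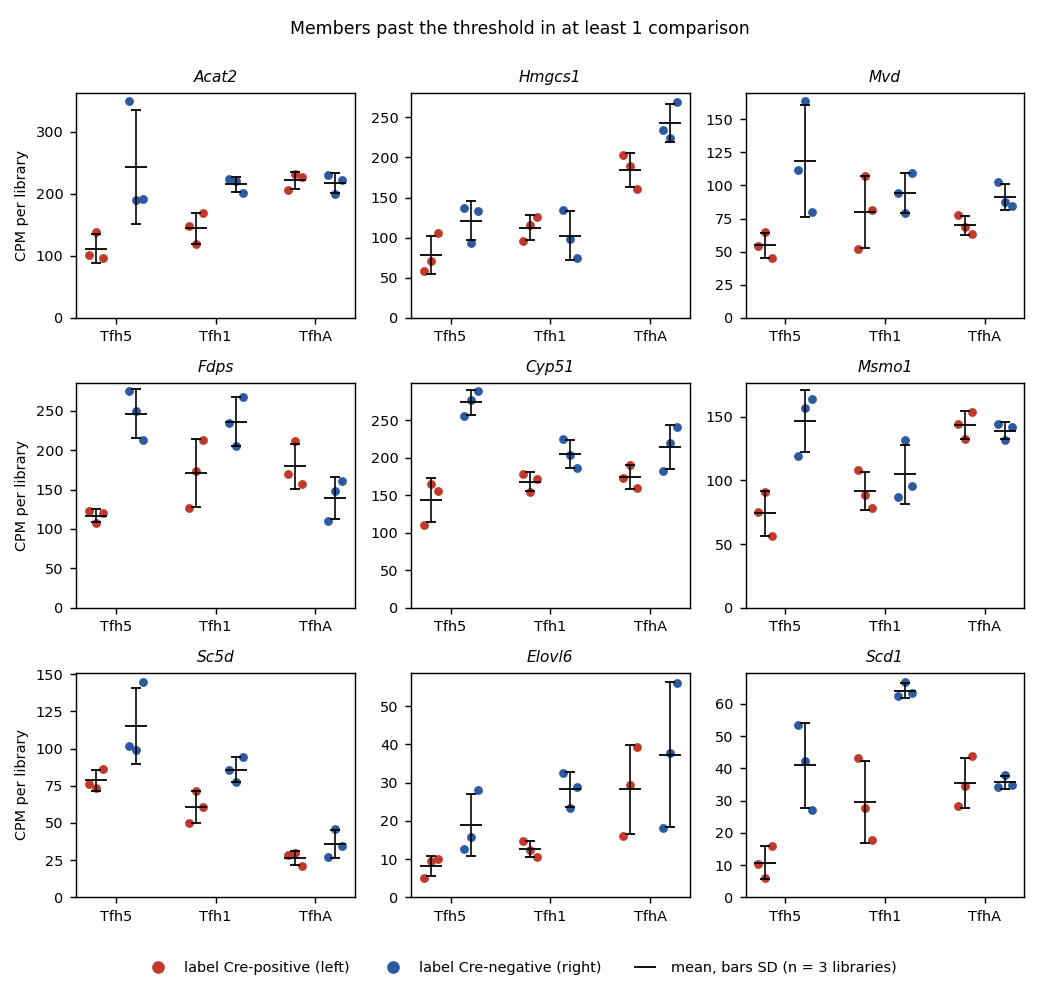
Level in CPM of the 9 members past the threshold in at least 1 comparison, 1 point per library, with the Cre-positive label (red) left of the Cre-negative label (blue) in each treatment, and bars for the mean and SD of 3 libraries. In Tfh5 the red points of Acat2, Mvd, Fdps, Cyp51, Msmo1 and Scd1 all lie below the blue ones, and Sc5d is higher in Tfh5 and Tfh1 than in TfhA under both labels.

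These 6 calls rest on the spread over all 18 libraries, moderated toward that of other genes. With the 6 Tfh5 libraries fitted alone, 0 of the 36 members passed (adjusted p of the 6 genes 0.0623 to 0.171). The share of all genes that passed in that fit is not given here, so this 0 cannot be read as particular to the members. Without Cre-positive replicate 1, 3 members passed, since Cyp51 (adjusted p = 0.0597), Msmo1 (0.0505) and Mvd (0.0724) were lost. Msmo1 and Mvd were also lost without Cre-positive replicate 6 (adjusted p = 0.119 and 0.115), Msmo1 without Cre-negative replicate 5 (0.0686) and Mvd without Cre-negative replicate 4 (0.176). The calls of Acat2, Fdps and Scd1 were kept when any 1 of the 18 libraries was left out.

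In Tfh1 and TfhA no member passed between the labels. In Tfh1 edgeR called 0 of 36 members, against 0.86% of all genes tested, and DESeq2 and limma-voom also called 0. By edgeR 4 members had an unadjusted p under 0.05. Here and below, the share of all genes at an unadjusted p under 0.05 is not given, so such counts cannot be set against a background. The median log2 fold change was -0.27, against -0.02 for all genes tested, and 7 members did not overlap, all lower under the Cre-positive label (8.55% of all genes tested were lower without overlap). In TfhA edgeR called 0 members, as it did for all genes tested (0%); 0 members had an unadjusted p under 0.05, and DESeq2 and limma-voom called 0. The median there was -0.35, against 0.00, and 5 members did not overlap, 4 of them lower (6.83% of all genes tested were lower without overlap).

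**Figure D2:**
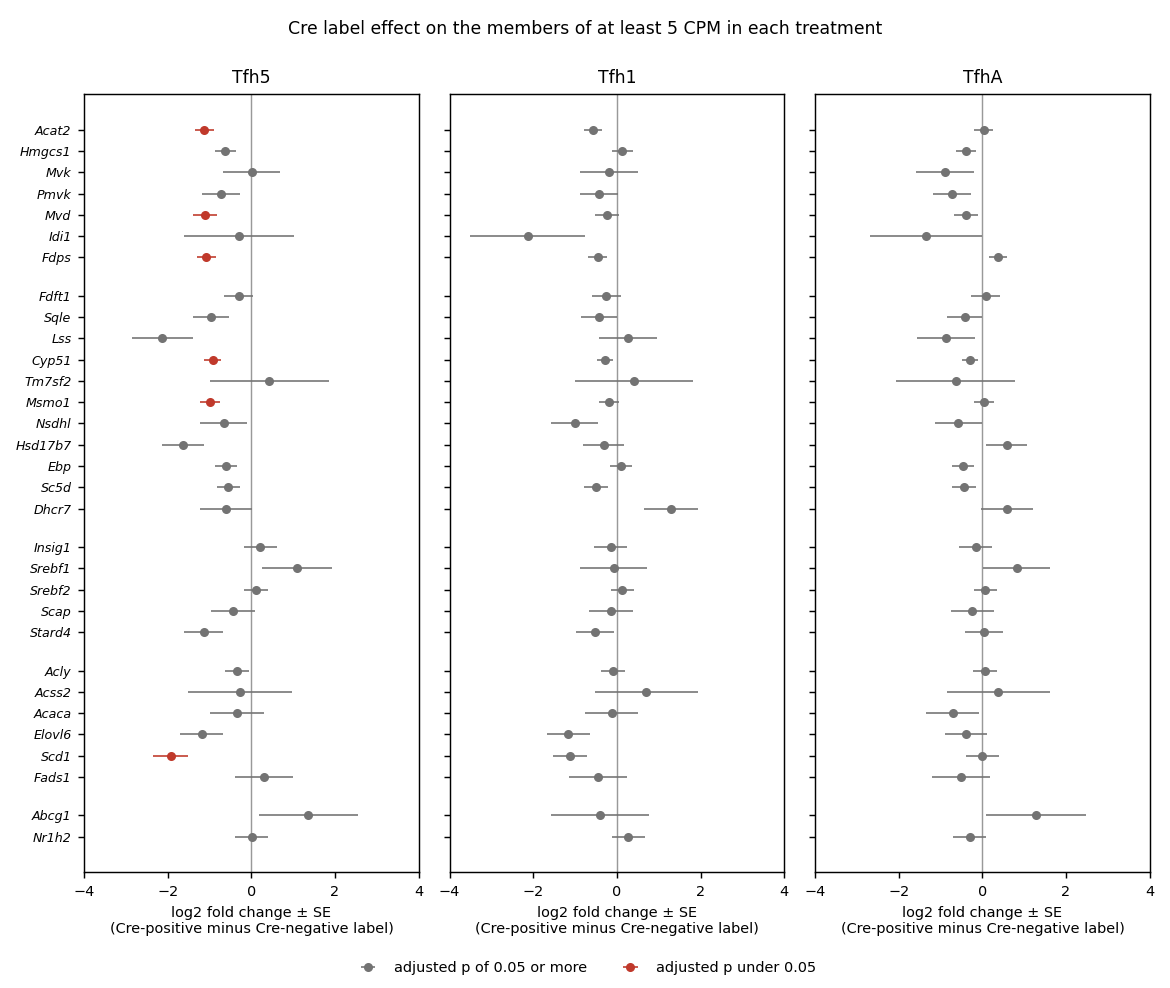
Log2 fold change with its standard error, libraries labelled Cre-positive minus those labelled Cre-negative, for the 31 members that averaged at least 5 CPM, by role from the mevalonate arm at the top to the LXR arm at the bottom, in Tfh5, Tfh1 and TfhA. Red marks an adjusted p under 0.05: 6 members in Tfh5, all left of 0, and none in Tfh1 or TfhA.

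Summed over the 18 mevalonate and sterol genes, the level in Tfh5 was 923 ± 126 CPM under the Cre-positive label and 1693 ± 66.7 CPM under the Cre-negative label (SD, n = 3 each). In Tfh1 it was 1121 ± 87.4 CPM under the Cre-positive label, against 1372 ± 59.9 CPM under the Cre-negative label, and in TfhA 1271 ± 59.7 CPM under the Cre-positive label and 1420 ± 74.1 CPM under the Cre-negative label. The ratio of the Cre-positive to the Cre-negative mean was 0.545 in Tfh5, 0.817 in Tfh1 and 0.895 in TfhA. The labels did not overlap in any of the 3 treatments. Such sums weigh most the genes with the highest CPM. In Tfh5 the largest differences of means were in the called genes Acat2 (-131.8 CPM), Cyp51 (-130.1), Fdps (-129.4), Msmo1 (-72.62) and Mvd (-63.81). The sum in Tfh5 is thus not separate from those calls, and no background for sums is given. Of the 18 genes, 16 had a negative and 2 a positive sign in Tfh5. The fatty acid arm summed to 127 ± 18.3 CPM under the Cre-positive label and 192 ± 53.5 CPM under the Cre-negative label in Tfh5 (SD, n = 3 each), and these ranges overlapped. In Tfh1 it summed to 178 ± 14.8 CPM under the Cre-positive label and 247 ± 18.7 CPM under the Cre-negative label, a ratio of 0.721, without overlap. In TfhA the sums of 235 ± 36.95 CPM under the Cre-positive label and 262 ± 38.4 CPM under the Cre-negative label overlapped.

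Whether the label effect itself differed between treatments was tested directly. Fdps was the 1 member of 36 that passed, between Tfh5 and TfhA (difference of log2 fold changes -1.44 ± 0.31, adjusted p = 0.00962), against 1.19% of all genes tested. In TfhA Fdps had 170.4, 212 and 157 CPM under the Cre-positive label and 109.9, 148 and 161 CPM under the Cre-negative label, overlapping groups in which the sign was the opposite of that in Tfh5. Acat2, Scd1 and Msmo1 had differences of -1.16 ± 0.32, adjusted p = 0.0621, of -1.92 ± 0.57, adjusted p = 0.103 and of -1.03 ± 0.34, adjusted p = 0.163, and did not pass. DESeq2 called 3 members there, Fdps, Acat2 (adjusted p = 0.0224) and Scd1 (0.0329), all lower, and edgeR called 2 without Tfh5 Cre-positive replicate 3 or 6 or without Tfh5 Cre-negative replicate 4 or 5. Between Tfh5 and Tfh1 edgeR called 0 members (0.0596% of all genes tested), with 6 at an unadjusted p under 0.05. Between Tfh1 and TfhA it called 0 (0.239% of all genes tested), with 2 at an unadjusted p under 0.05. The shares of all genes are at an adjusted p under 0.05, so they are no background for the 6 and the 2. DESeq2 and limma-voom called 0 in both. The label effect on the other 5 members lower in Tfh5 was thus not shown to differ by edgeR from that in Tfh1 or TfhA.

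Other measures moved with the labels in Tfh5. The summed level of 20 proliferation genes was 1325 to 1668 CPM under the Cre-positive label and 1914 to 2007 CPM under the Cre-negative label. In Tfh1 it was 1307 to 1527 CPM under the Cre-positive label and 1895 to 2034 CPM under the Cre-negative label. In TfhA it was 1912 to 2219 CPM under the Cre-positive label and 2370 to 2564 CPM under the Cre-negative label. The sums were thus lower under the Cre-positive label, without overlap, in all 3 treatments, as were the sums of the mevalonate and sterol genes. Gene by gene, 0 of the 19 proliferation genes tested passed between the labels in Tfh1 or TfhA, against 0.86% and 0% of all genes tested. In Tfh5, 2 of the 19 tested were lower (10.5%), the topoisomerase gene Top2a and the ribonucleotide reductase gene Rrm2. Of all genes tested, 3.2% passed there in either direction and 2.01% were lower. The median log2 fold change of the 19 was -0.57. Of the 8 CD4 T cell markers, 2 were higher and 1 lower in Tfh5 (37.5%, against 3.2% of all genes tested). Cd4 itself had 130.5, 134 and 123 CPM under the Cre-positive label and 49.3, 64.96 and 58.03 CPM under the Cre-negative label in Tfh5 (log2 fold change 1.17 ± 0.23, adjusted p = 0.00132). The costimulatory receptor gene Cd28 was also higher (0.72 ± 0.20, adjusted p = 0.0333), and Thy1, a surface glycoprotein of T cells, was lower (-0.96 ± 0.22, adjusted p = 0.00753). The summed level of the 8 markers was 2861 to 3559 CPM under the Cre-positive label and 2512 to 2977 CPM under the Cre-negative label. Summed myeloid and dendritic markers were 0 to 4.802 CPM under the Cre-positive label and 4.53 to 10.4 CPM under the Cre-negative label. The part of these measures in the lower sterol genes was not tested.

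**Figure D3:**
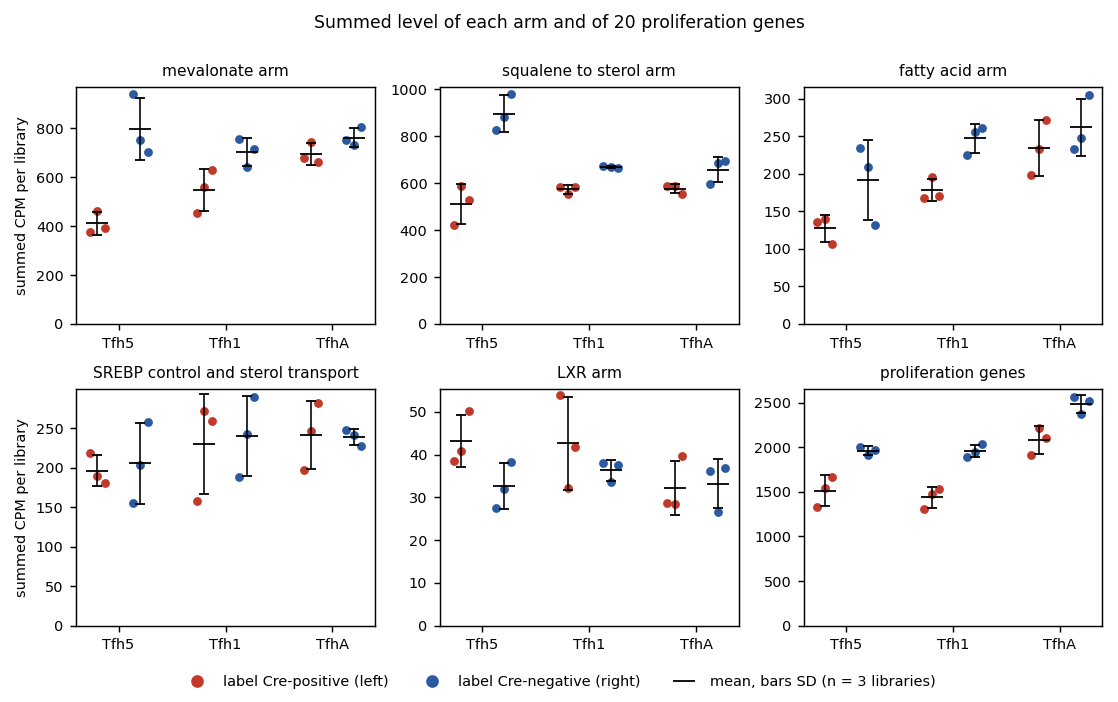
Summed CPM per library of the 5 arms of the set and of 20 proliferation genes, with the Cre-positive label (red) left of the Cre-negative label (blue) in each treatment and bars for the mean and SD of 3 libraries. The mevalonate and squalene to sterol arms separate most in Tfh5, the sum of the proliferation genes is lower under the Cre-positive label without overlap in all 3 treatments, and the SREBP control genes overlap in all 3.

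None of the 5 genes of SREBP control and sterol transport passed between the labels in any treatment by edgeR, DESeq2 or limma-voom. Of all genes tested, 3.2%, 0.86% and 0% passed by edgeR in Tfh5, Tfh1 and TfhA, so 0 of 5 is near those shares. At an unadjusted p under 0.05, edgeR had 1 of these genes in Tfh5 and 0 in Tfh1 or TfhA. Srebf2, the SREBP gene of the sterol pathway (chr15:82147269-82205379), had 81.7, 63.5 and 61.8 CPM under the Cre-positive label and 35.9, 98.3 and 57.5 CPM under the Cre-negative label in Tfh5 (log2 fold change 0.11 ± 0.28, adjusted p = 0.945). Its Cre-positive libraries lay within the range of the Cre-negative ones. In Tfh1 it had 101, 115 and 111 CPM under the Cre-positive label and 95, 102 and 103 CPM under the Cre-negative label. In TfhA it had 86.1, 102 and 137 CPM under the Cre-positive label and 96.99, 114 and 98.5 CPM under the Cre-negative label. The mean of Srebf2 was thus lowest in Tfh5 under both labels, without passing the test of Tfh5 against TfhA (-0.65 ± 0.28, adjusted p = 0.200 under the Cre-positive label and -0.69 ± 0.28, adjusted p = 0.188 under the Cre-negative label).

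Srebf1, the SREBP gene tied more to fatty acid synthesis, was variable. It had 4.23, 2.08 and 13.6 CPM under the Cre-positive label and 0.906, 4.27 and 4.19 CPM under the Cre-negative label in Tfh5. In Tfh1 it had 17.7, 25.9 and 5.71 CPM under the Cre-positive label and 14.2, 14.01 and 23.6 CPM under the Cre-negative label. In TfhA it had 5.301, 12.7 and 41.6 CPM under the Cre-positive label and 8.08, 12.5 and 13.3 CPM under the Cre-negative label. The labels overlapped in each treatment, and 1 TfhA library labelled Cre-positive stood far above its group. The mean of Srebf1, like that of Srebf2, was lowest in Tfh5 under both labels. Under the Cre-negative label every Tfh5 library lay below every Tfh1 and TfhA library, without a call by edgeR, DESeq2 or limma-voom. Insig1, the sterol-bound retention factor and itself an SREBP target, had 83.5, 78.01 and 72.7 CPM under the Cre-positive label, against 51.6, 48.4 and 102 CPM under the Cre-negative label in Tfh5 (log2 fold change 0.21 ± 0.40, adjusted p = 0.908). The labels overlapped, and Insig1 had fractional counts in 17 of 18 libraries. In Tfh1 Insig1 had 18.3, 58.5 and 78.6 CPM under the Cre-positive label and 26.6, 79.2 and 66.2 CPM under the Cre-negative label, with overlap. In TfhA Insig1 had 41.3, 65.8 and 50.6 CPM under the Cre-positive label and 73.02, 54.2 and 49.7 CPM under the Cre-negative label, also with overlap. Scap, the escort protein, had 30.97, 39.9 and 11.6 CPM under the Cre-positive label and 24.98, 30.6 and 56.5 CPM under the Cre-negative label in Tfh5. In Tfh1 Scap had 6.48, 34.2 and 44.5 CPM under the Cre-positive label and 25.1, 16.9 and 51.6 CPM under the Cre-negative label. In TfhA Scap had 28.3, 32.02 and 25.96 CPM under the Cre-positive label and 36.6, 31.8 and 34.1 CPM under the Cre-negative label. Its labels overlapped in all 3. Stard4, a cytosolic sterol carrier, spanned 6.49 to 20.5 CPM under the Cre-positive label and 21.4 to 41.9 CPM under the Cre-negative label in Tfh5. These ranges did not overlap, and the gene did not pass (log2 fold change -1.14 ± 0.46, adjusted p = 0.222). Its labels overlapped in Tfh1 and TfhA.

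In the LXR arm 0 of 4 genes passed in any of the 12 comparisons by edgeR, DESeq2 or limma-voom. Of all genes tested, 10.9% passed at least once by edgeR, so 0 of 4 does not set the arm apart. By edgeR 1 gene had an unadjusted p under 0.05 in 3 of the comparisons and 0 in the others. In Tfh5 the arm summed to 38.52 to 50.12 CPM under the Cre-positive label and 27.57 to 38.24 CPM under the Cre-negative label, a narrow gap without overlap. Nr1h2 made up most of these sums, with means of 27.17 and 27.12 CPM under these labels. All 4 genes had a positive sign there, Nr1h2 with a log2 fold change of only 0.003 ± 0.40, and the labels overlapped for each gene. The sums overlapped in Tfh1 and TfhA. The cholesterol exporter gene Abcg1 had 12.2, 4.15 and 15.1 CPM under the Cre-positive label and 1.04, 2.85 and 8.38 CPM under the Cre-negative label in Tfh5. In Tfh1 Abcg1 had 4.98, 6.96 and 1.79 CPM under the Cre-positive label and 6.77, 4.87 and 6.49 CPM under the Cre-negative label. In TfhA Abcg1 had 7.68, 5.13 and 7.06 CPM under the Cre-positive label and 3.098, 2.45 and 2.595 CPM under the Cre-negative label. The labels overlapped in Tfh5 and Tfh1 and did not in TfhA. Abca1, which exports cholesterol to apolipoproteins, was at or under 6.64 CPM and Mylip, an E3 ligase for lipoprotein receptors, at or under 5.87 CPM in every library, with 0 in some libraries of both labels. In Tfh5 Abca1 had 0, 4.67 and 6.46 CPM under the Cre-positive label and 0.129, 2.42 and 0 CPM under the Cre-negative label. In Tfh1 Abca1 had 0.374, 0 and 0.163 CPM under the Cre-positive label and 0, 0 and 1.35 CPM under the Cre-negative label. In TfhA Abca1 had 0, 6.64 and 1.79 CPM under the Cre-positive label and 1.62, 0.715 and 2.096 CPM under the Cre-negative label. The labels overlapped in each treatment, as they did for Mylip. In Tfh5 Mylip had 0.453, 2.47 and 2.45 CPM under the Cre-positive label and 1.68, 0 and 0 CPM under the Cre-negative label. In Tfh1 Mylip had 0, 0 and 5.87 CPM under the Cre-positive label and 0, 0.304 and 0 CPM under the Cre-negative label. In TfhA Mylip had 0, 0 and 0 CPM under the Cre-positive label and 1.89, 0.511 and 0 CPM under the Cre-negative label. Differences in these 2 genes were not detectable at this depth. Nr1h2, which encodes LXRβ, had 25.8, 29.6 and 26.1 CPM under the Cre-positive label and 24.7, 26.8 and 29.9 CPM under the Cre-negative label in Tfh5, a log2 fold change of 0.003 ± 0.40. In Tfh1 Nr1h2 had 48.6, 25.3 and 34.1 CPM under the Cre-positive label and 31.2, 28.3 and 29.7 CPM under the Cre-negative label, with overlap. In TfhA Nr1h2 had 21.02, 16.6 and 30.7 CPM under the Cre-positive label and 29.5, 22.98 and 32.2 CPM under the Cre-negative label, also with overlap.

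**Figure D4:**
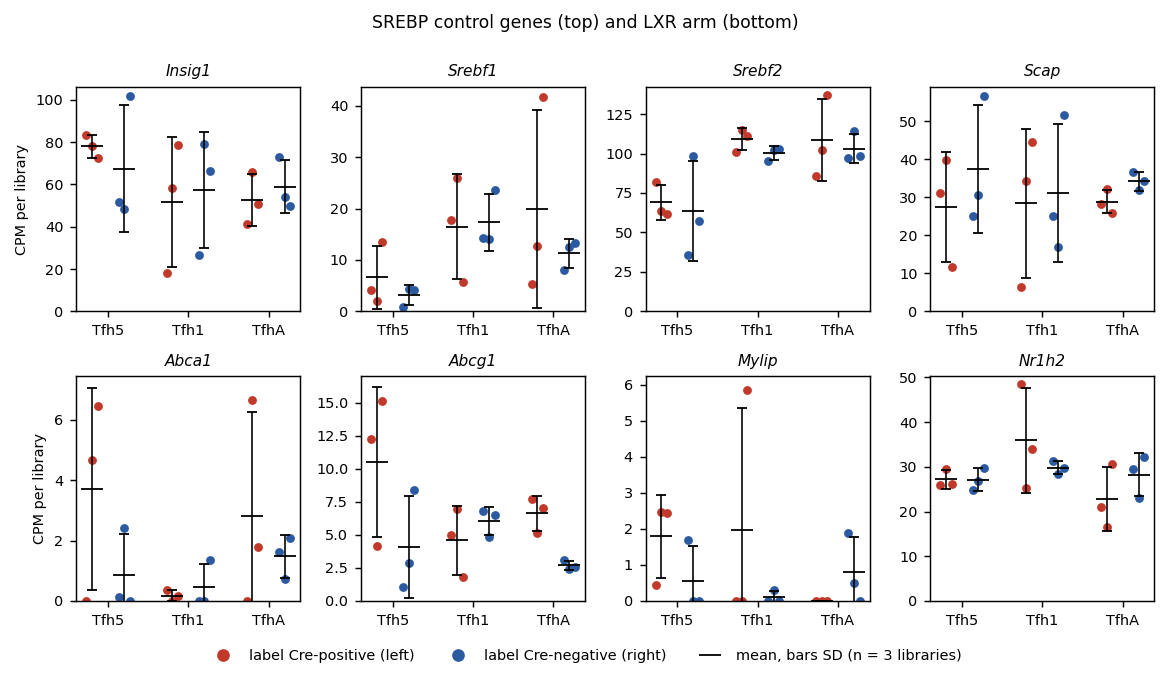
Level in CPM of 4 SREBP control genes (top) and the 4 LXR arm genes (bottom), 1 point per library, with the Cre-positive label (red) left of the Cre-negative label (blue) in each treatment and bars for the mean and SD of 3 libraries, cut at 0. The labels overlap in most panels, and Abca1 and Mylip lie near 0 in most libraries.

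Treatments were compared within each label. Under the Cre-positive label, Tfh5 against TfhA gave 6 calls among the 36 members, 1 higher and 5 lower (16.7%), against 5.41% of all genes tested. The lower genes were Acat2, Hmgcs1, Msmo1, Elovl6 and Scd1, and the higher one was Sc5d. DESeq2 called 8, adding Lss (adjusted p = 0.032) and Fdps (0.0487), both lower; limma-voom called 6, with Acly (0.0452) lower and without Elovl6. The median log2 fold change of the members was -0.23, against -0.05 for all genes tested, and 14 members did not overlap, 10 of them lower (21.4% of all genes tested did not overlap). Under the Cre-negative label the same contrast gave 3 calls, Fdps and Sc5d higher and Hmgcs1 lower (8.33%), against 5.09% of all genes tested. DESeq2 and limma-voom each called 4, adding Hsd17b7 as higher (adjusted p = 0.0293 and 0.0182). The median of the members was 0.10, against -0.09, and 8 did not overlap, 3 of them lower (24.7% of all genes tested did not overlap).

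Sc5d and Hmgcs1 were the 2 members edgeR called under both labels, in opposite directions. Sc5d (chr9:42251592-42264300) had 76.3, 73.3 and 86.5 CPM in Tfh5 and 28.7, 29.5 and 21.1 CPM in TfhA under the Cre-positive label (log2 fold change 1.57 ± 0.29, adjusted p = 0.000310). Under the Cre-negative label it had 102, 99.3 and 145 CPM in Tfh5 and 27.4, 45.8 and 34.7 CPM in TfhA (1.68 ± 0.29, adjusted p = 0.000140). Neither pair of groups overlapped, and the difference of the 2 effects was -0.10 ± 0.40. Hmgcs1 had 202, 189 and 160.5 CPM in TfhA under the Cre-positive label and 235, 224 and 269.7 CPM under the Cre-negative label, above all its Tfh5 libraries given earlier. Its log2 fold changes were -1.23 ± 0.25, adjusted p = 0.00125 under the Cre-positive label and -1.001 ± 0.25, adjusted p = 0.0102 under the Cre-negative label. The call of Hmgcs1 under the Cre-negative label was lost without Tfh5 replicate 4 (adjusted p = 0.0745) or TfhA replicate 5 (0.0740).

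By edgeR the other calls of Tfh5 against TfhA were made under 1 label. Acat2 had 206, 232 and 228 CPM in TfhA under the Cre-positive label (Tfh5 against TfhA -0.99 ± 0.23, adjusted p = 0.00456) and 229, 199 and 222 CPM under the Cre-negative label (0.17 ± 0.22, adjusted p = 0.842). The TfhA libraries of both labels spanned about the same range. Scd1 had 28.3, 34.6 and 43.8 CPM in TfhA under the Cre-positive label and 34.2, 38.1 and 34.9 CPM under the Cre-negative label, again overlapping, with Tfh5 against TfhA at -1.73 ± 0.41, adjusted p = 0.00670 under the Cre-positive label and 0.20 ± 0.40, adjusted p = 0.916 under the Cre-negative label. Msmo1 had 144, 132 and 154 CPM in TfhA under the Cre-positive label and 145, 132 and 142 CPM under the Cre-negative label, with contrasts of -0.95 ± 0.24, adjusted p = 0.0115 and of 0.07 ± 0.24, adjusted p = 0.957 under these labels. For these genes it is the Tfh5 libraries labelled Cre-positive that stand below the other 3 of these 4 groups. Fdps had the contrast -0.62 ± 0.22, adjusted p = 0.101 under the Cre-positive label and 0.82 ± 0.22, adjusted p = 0.0188 under the Cre-negative label, and this difference is the one that passed above.

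Elovl6 (chr3:129532386-129638495) had 5.14, 9.61 and 9.95 CPM in Tfh5 and 16.1, 29.4 and 39.2 CPM in TfhA under the Cre-positive label (log2 fold change -1.78 ± 0.52, adjusted p = 0.0331). Under the Cre-negative label Elovl6 had 12.7, 15.8 and 28.01 CPM in Tfh5 and 18.2, 37.7 and 55.98 CPM in TfhA, which overlapped (-0.99 ± 0.50, adjusted p = 0.333). Under the Cre-positive label the groups did not overlap, but the call was lost under more alternatives than any of the other 18: it was lost with limma-voom (adjusted p = 0.123), with only the 6 libraries compared (0.103) and without any of 7 libraries. These were Tfh5 Cre-positive replicates 1, 3 and 6 (0.162, 0.0659 and 0.065), TfhA Cre-positive replicates 3 and 6 (0.0919 and 0.185) and TfhA Cre-negative replicates 4 and 5 (0.0588 and 0.0570). Scd1 under the Cre-positive label lost its call with only the 6 libraries compared (adjusted p = 0.0744) and without Tfh5 replicate 3 (0.0574). Msmo1 lost it without Tfh5 replicate 6 (0.101) or TfhA replicate 6 (0.0571). Fdps under the Cre-negative label lost it with only the 6 libraries compared (0.0576) and without Tfh5 replicate 2 (0.0659), Tfh5 replicate 4 (0.0501) or TfhA replicate 2 (0.162).

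**Figure D5:**
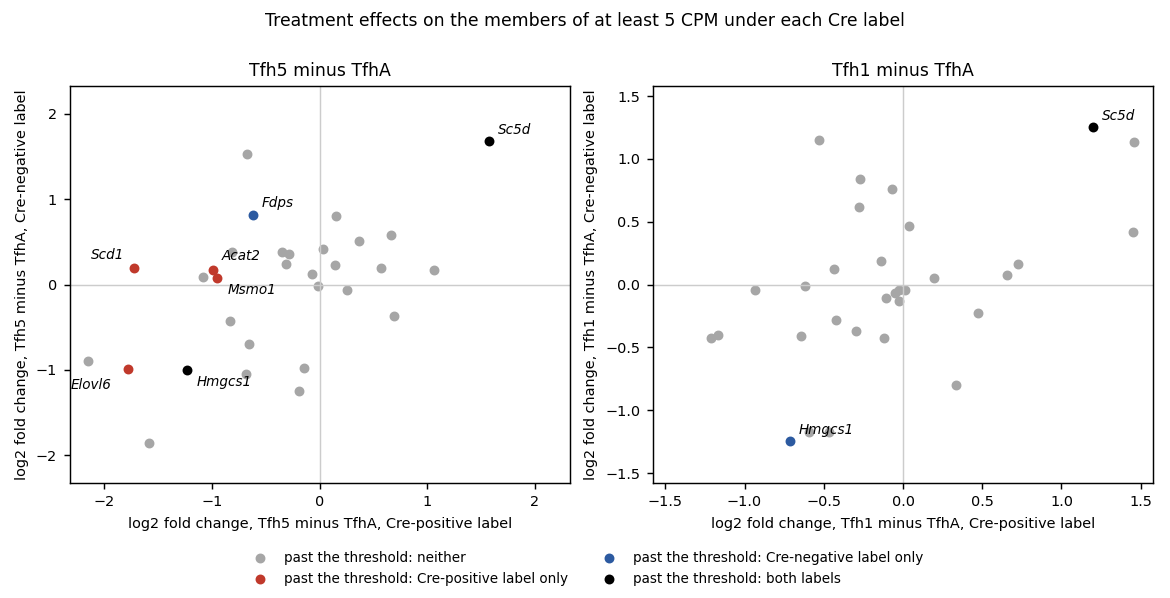
Log2 fold changes of the 31 members that averaged at least 5 CPM, Tfh5 minus TfhA (left) and Tfh1 minus TfhA (right), under the Cre-positive label (x axis) and the Cre-negative label (y axis), 1 point per gene. Sc5d is at the upper right in both panels and Hmgcs1 at the lower left, while Acat2, Msmo1 and Scd1 are low on the x axis and near 0 on the y axis in the left panel.

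Tfh1 against TfhA gave fewer calls; it shares its TfhA libraries with the contrast above. Under the Cre-positive label 1 of 36 members passed (2.78%), against 2.59% of all genes tested, which is near the background. It was Sc5d, with 49.95, 71.3 and 60.6 CPM in Tfh1 (log2 fold change 1.20 ± 0.28, adjusted p = 0.0121). Under the Cre-negative label 2 passed (5.56%), against 2.23% of all genes tested. They were Sc5d, with 85.9, 77.3 and 94.2 CPM in Tfh1 (1.25 ± 0.28, adjusted p = 0.00858), and Hmgcs1, with 134, 98.2 and 74.6 CPM in Tfh1 (-1.25 ± 0.25, adjusted p = 0.00254). DESeq2 and limma-voom each called 3, adding Fdps as higher (adjusted p = 0.0148 and 0.0376). No Tfh1 library of Sc5d was as low as any TfhA library of its label, and no Tfh1 library of Hmgcs1 as high. Sc5d lost its call under the Cre-positive label with only the 6 libraries compared (adjusted p = 0.0631), without Tfh1 replicate 3 (0.0657) or without TfhA replicate 6 (0.0963). Under the Cre-negative label it lost it without TfhA replicate 2 (0.0851) or 5 (0.0579).

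Under the Cre-positive label Hmgcs1 had 95.4, 116 and 126 CPM in Tfh1, a contrast with TfhA of -0.71 ± 0.25, adjusted p = 0.127. In Tfh1 the other called members also had no call between the labels. Acat2 had 147, 118 and 168 CPM under the Cre-positive label and 224, 220.3 and 201 CPM under the Cre-negative label in Tfh1, without overlap. Fdps had 126, 174 and 213 CPM under the Cre-positive label and 235, 205 and 268 CPM under the Cre-negative label in Tfh1, with overlap. Msmo1 had 108, 88.6 and 78.2 CPM under the Cre-positive label and 87.1, 132 and 95.7 CPM under the Cre-negative label in Tfh1, which overlapped too. Cyp51 had 179, 154 and 171 CPM under the Cre-positive label and 225, 203 and 186 CPM under the Cre-negative label in Tfh1, without overlap. In TfhA Cyp51 had 173, 191 and 159 CPM under the Cre-positive label and 182, 219 and 240.5 CPM under the Cre-negative label, with overlap. Scd1 had 43.1, 27.7 and 17.8 CPM under the Cre-positive label and 62.5, 66.7 and 63.4 CPM under the Cre-negative label in Tfh1, without overlap but without a call (-1.12 ± 0.40, adjusted p = 0.259). Elovl6 likewise had 14.7, 12.5 and 10.6 CPM under the Cre-positive label and 32.4, 23.4 and 28.9 CPM under the Cre-negative label in Tfh1 (-1.16 ± 0.51, adjusted p = 0.418).

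Tfh5 against Tfh1 gave 0 calls among the members under either label by edgeR. Under the Cre-positive label 1.75% of all genes tested passed, and 5 members had an unadjusted p under 0.05; DESeq2 called 2, Lss (adjusted p = 0.019) and Scd1 (0.015), both lower, and limma-voom 0. Under the Cre-negative label 0.554% of all genes tested passed, 5 members had an unadjusted p under 0.05, and DESeq2 and limma-voom called 0. These shares of all genes are at an adjusted p under 0.05, so they are no background for the counts at an unadjusted p. The count under the Cre-positive label became 1 without Tfh5 Cre-positive replicate 6, Tfh1 Cre-positive replicate 6 or Tfh5 Cre-negative replicate 5.

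Over the 9 comparisons of 2 groups and the 3 differences of effects, 9 of the 36 members (25%) passed at least once by edgeR and 27 did not, against 10.9% of all genes tested that passed at least once. Of the 27, DESeq2 or limma-voom called 3 in at least 1 comparison, Lss, Hsd17b7 and Acly, and 24 were called by none of the 3 tools. The 9 were Acat2, Hmgcs1, Mvd and Fdps of the 7 mevalonate genes, Cyp51, Msmo1 and Sc5d of the 11 sterol genes, and Elovl6 and Scd1 of the 9 fatty acid genes. Among the 24 were the kinases Mvk and Pmvk, the isomerase Idi1 (at or under 20.01 CPM in every library), squalene synthase Fdft1 and the epoxidase Sqle. The sterol reductases Tm7sf2 and Dhcr7 and the acyl chain enzymes Acaca, Acss2, Fads1 and Fads2 were also among them.

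Other genes of the pathways were listed by role. Of 18 other sterol and isoprenoid genes, all tested, 1 was lower and 1 higher between the labels in Tfh5 (11.1%, against 3.2% of all genes tested). Tmem97, a sterol-regulated membrane protein that binds NPC1, had 7.704, 11.7 and 12.9 CPM under the Cre-positive label and 21.9, 35.3 and 40.8 CPM under the Cre-negative label (log2 fold change -1.60 ± 0.45, adjusted p = 0.0409). Npc2, which moves cholesterol out of lysosomes, had 919, 1065 and 584 CPM under the Cre-positive label and 534, 475 and 537 CPM under the Cre-negative label (0.73 ± 0.19, adjusted p = 0.0245). Neither gene's labels overlapped, and the signs were opposite. Of these 18 genes, 9 had a positive and 9 a negative sign in Tfh5, with a median log2 fold change of 0.03. Npc2 was also higher in Tfh1, with 1246, 1370 and 1256 CPM under the Cre-positive label and 665, 822 and 597 CPM under the Cre-negative label (0.89 ± 0.19, adjusted p = 0.0122). Of 15 tested among 18 other fatty acid genes, Fabp5, a fatty acid carrier, was the 1 that passed in Tfh5 (6.67%), with 62.1, 29.9 and 53.4 CPM under the Cre-positive label and 81.9, 106 and 153 CPM under the Cre-negative label (-1.23 ± 0.29, adjusted p = 0.0107). It was lower in Tfh1 as well (-1.15 ± 0.29, adjusted p = 0.0476). Between Tfh5 and TfhA, Tmem97 and Fabp5 were lower under the Cre-positive label (-1.48 ± 0.45, adjusted p = 0.0455 and -1.44 ± 0.29, adjusted p = 0.00128), and the mitochondrial thiolase Acat1 was lower under the Cre-negative label (-1.78 ± 0.48, adjusted p = 0.0194). Fabp5 was also lower in Tfh1 than in TfhA under the Cre-positive label (-1.82 ± 0.30, adjusted p = 0.00018).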

How the data were processed

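The authors counted 3′ mRNA reads (50 ng of RNA, Lexogen FWD kit, per the labels' protocols) with STAR 2.7.2b and featureCounts 1.6.4 on mm10, per the submitters' processing notes. The deposited values are expected counts per gene, not normalized; 11.7% to 18.1% of the values per library were fractional, so genes may share reads, by a rule the sources used here do not state, nor do they state strandedness. The planned tests assumed counts, and the fractional values were rounded to whole numbers. Entrez identifiers were named through the RefSeq table of GRCm38.p6, which left 1904 of 27179 without a name.

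The tool was edgeR 4.0.16 (R 4.3.3), with TMM scaling (factors 0.829 to 1.391), filterByExpr and its robust quasi-likelihood test, fitted to the 6 group means of all 18 libraries (12 residual degrees of freedom), and Benjamini-Hochberg adjustment over all 11738 genes tested with a threshold of 0.05. Every adjusted p in the text is from that fit unless another is named. The quasi-likelihood test moderates the spread of each gene toward that of other genes (median prior degrees of freedom 22.5). Standard errors are the log2 fold change over the square root of F. CPM uses the TMM-scaled library size. Replicate libraries had Spearman correlations of 0.858 to 0.909 across genes, and none were duplicates. Alternatives were RLE scaling, DESeq2 1.42.0, limma-voom (limma 3.58.1), no filter, 2 abundant identifiers left out, only the libraries compared, the replicate number as a block, and each library left out in turn. Scripts were tested on simulated data. Values after ± are SDs over the libraries of a group for CPM and standard errors for log2 fold changes, and both reflect the spread between libraries.

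The members and lists were chosen with earlier results of these data known, so no test over the list is given. Every called member is named; those called, Srebf1, Srebf2, Scap, Insig1, the LXR genes and Scd2 have every library printed, and the others ranges, counts or fold changes. Hsd17b7 was added, with every Tfh5 library, after its values were seen. No protein sequence is printed.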

Additional observations from a re-analysis of the deposited data

Results flagged for a closer look

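Fdps was the 1 member whose Cre label effect differed between treatments by a test of the difference itself: libraries labelled Cre-positive minus libraries labelled Cre-negative, Tfh5 minus TfhA, gave a difference of -1.44 ± 0.31 on the log2 scale (edgeR, adjusted p = 0.00962). Its adjusted p over the alternatives tried ranged up to 0.0453, so its call was kept in each. These alternatives include leaving out each library in turn. Groups of 3 libraries are too small for a formal test of outlying libraries, and none was made.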

How the results depend on the processing

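Of 469 recomputed values of the 19 member calls, 432 kept their direction and call, 37 kept the direction and lost the call, and 0 reversed. Counts of members called moved by over 1.5 times, or to or from 0, in these cases. DESeq2 called 2 in Tfh5 minus Tfh1 under the Cre-positive label and 3 in the difference of label effects Tfh5 minus TfhA, where edgeR called 0 and 1. Smaller moves with DESeq2 or limma-voom, from 6 to 7 or 8, 3 to 4 and 2 to 3, are given beside their comparisons. Without the filter on low counts, Tfh5 minus Tfh1 under the Cre-positive label gave 1. With only the libraries compared, 0 passed between the labels in Tfh5 (6 with all libraries) and 0 in Tfh1 minus TfhA under the Cre-positive label (1 with all libraries). These fits rest on 6 libraries, and the shares of all genes that passed in them are not given here. Leaving out 1 library gave 3 to 7 between the labels in Tfh5, 4 to 6 and 2 to 3 for Tfh5 minus TfhA under the Cre-positive and Cre-negative labels, 0 to 1 and 1 to 3 for Tfh1 minus TfhA under these labels, 0 to 1 for Tfh5 minus Tfh1 under the Cre-positive label, and 1 to 2 for the difference Tfh5 minus TfhA. RLE scaling and leaving out the 2 abundant identifiers changed no count, and scaling moved the median of all genes by -0.03 to 0.03. The replicate number as a block gave 6 and 3 members for Tfh5 minus TfhA and 1 and 2 for Tfh1 minus TfhA under the Cre-positive and Cre-negative labels, the same counts as without it. Libraries with the same number did not deviate together: 0 of 18 pairs had a correlation over 0.1 (-0.037 to 0.077). The 2 Cre labels share no number, so no paired analysis of them was possible. At this depth Fasn, Fads2, Abca1, Mylip and Scd2, which averaged under 5 CPM, were too low to compare.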
